A study of Drosophila melanogaster with 34 samples.

Results

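In WT discs and brains, binding sites of Crooked legs (Crol) were compared peak by peak with those of Combgap (Cg). The comparison took every Crol peak and every Cg peak on X, 2L, 2R, 3L, 3R and 4. There were 10139 Crol peaks and 8938 Cg peaks, together 19077 of the 47852 peaks that the 5 lists used from the series hold on these arms. A Crol peak and a Cg peak were counted as a pair when they overlapped by at least 1 bp. Of the Crol peaks, 2454 (24.2%) were unpaired, and of the Cg peaks 1154 (12.9%) were unpaired. The gap between these shares went with the length of the lists: with the Crol list cut to its 8938 strongest peaks, 1814 Crol peaks (20.3%) and 1683 Cg peaks (18.8%) were unpaired.

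The WT groups were brains and imaginal discs of wild-type Drosophila melanogaster larvae at the 3rd instar, pooled from several animals, with 2 samples for Crol and 2 for Cg. Crol was precipitated with the rabbit antibody CrolN, raised against residues 1 to 188 of isoform A, and Cg with an antibody from an earlier study. The same tissue of CrolKO larvae (crol-KO, a knockout line made by CRISPR), again with 2 samples for each protein, and wild-type S2 cells with 2 CrolN samples are used below only for comparison. The S2 cell line, which grew out of Drosophila embryos, was identified by the title of its samples, since their tissue label names discs and brains. Brains and discs are mixtures of cell types, so a pair of overlapping peaks does not show that both proteins bound in the same cell. The crol-KO tissue still gave 9883 peaks with the Crol antibody. The study found less Crol protein in this tissue by Western blot and proposes that the rest was supplied by the mother. The crol-KO Crol list is thus one of reduced protein. A first set of WT CrolN libraries and libraries with a further Crol antibody, CrolC, from the same tissue were not analysed here, and the sources used here do not state whether reads of the first set entered the WT Crol list.

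Polycomb group (PcG) proteins keep genes silent. In flies they are brought to chromatin at Polycomb response elements (PREs), stretches of DNA that gather several sequence-specific binding proteins. Cg is a zinc finger protein that binds PREs and helps to bring in PcG proteins there. Crol is a zinc finger protein of the C2H2 type that binds G-rich DNA, and the study asked whether it is a further factor of this kind. Both proteins also bind many sites outside Polycomb domains, and the lists do not separate these sites from PREs.

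Each group had 1 peak list, called by the authors on the pooled reads of its replicates, so no test across samples could be made and no p-values are given. Intervals in brackets are 95% intervals. They are exact Clopper-Pearson intervals for shares and order-statistic intervals for medians. They cover counting error only and treat sites as independent, which neighbouring peaks are not. Correlations across sites are Spearman's rho, given as descriptions. The values in the lists implied about 4.24 M reads for Crol and 3.42 M reads for Cg. The median peak was 523 bp wide for Crol and 512 bp for Cg. Fold enrichment is the authors' ratio of the reads piled up at the summit, the highest point of a peak, to the local background, and its median was 3.39 for Crol and 3.64 for Cg. Because it depends on depth and background, it was compared between lists only as a percentile, where 100 is the strongest peak of a list. Coordinates are those of the build dm3, counted from 1.

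Where Crol and Cg overlapped, they nearly always did so as 1 peak of each. The 7685 paired Crol peaks and 7784 paired Cg peaks formed 7562 groups linked by overlap, and 7237 of these groups (95.7%; 95.2 to 96.1) held 1 Crol and 1 Cg peak. These 1-to-1 pairs are the sites on which most values below rest. In 195 groups 1 Crol peak covered 2 Cg peaks, and in 111 groups 1 Cg peak covered 2 Crol peaks. A single Crol peak lay over 3 Cg peaks in 8 groups, while 10 groups held 2 of each and 1 group held 3 Crol and 2 Cg peaks. Splitting was thus rare from either side.

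In a split group the summit of the wide peak usually lay at the stronger of the narrow ones. The 195 Crol peaks that covered 2 Cg peaks had a median width of 1568 bp, and the Cg summits under them lay a median of 804 bp apart. The Crol summit was nearer to the stronger Cg peak in 139 of them (71.3%; 64.4 to 77.5), at a median of 42 bp from the nearest Cg summit. The 111 Cg peaks that covered 2 Crol peaks had a median width of 1305 bp, with Crol summits 762 bp apart. The Cg summit was nearer to the stronger Crol peak in 80 of these (72.1%; 62.8 to 80.2), at a median of 49 bp. The proteins therefore looked alike in this respect, within these intervals.

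The group with the most peaks, chr2R:20276100-20278094, held 3 Crol peaks with fold enrichments between 2.42 and 3.67 and 2 Cg peaks with 2.74 and 3.43, in a stretch of 1995 bp. The next, chr3R:9625596-9629639, was 4044 bp long and held 2 Crol peaks (3.79 and 4.98) and 2 Cg peaks (3.02 and 3.99). On X, chrX:415419-418955 held 2 Crol peaks (2.65 and 3.87) and 2 Cg peaks (2.86 and 4.39) in 3537 bp. None of these 3 groups, picked by their number of peaks, held a fold enrichment above 5. Split sites were not weak as a set. The Crol peaks that covered 2 Cg peaks had a median percentile of 83.2, against 59.5 for all paired Crol peaks. The Cg peaks that covered 2 Crol peaks had 74.8, against 55.1 for all paired Cg peaks.

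The summits of Crol and Cg fell almost on the same base pairs. Over the 7237 1-to-1 pairs the median distance between the summits was 41 bp (40 to 42), with quartiles of 18 and 84 bp. In 57 pairs (0.788%) the summits were identical, in 58.0% they lay within 50 bp, and in 79.9% (79.0 to 80.9) within 100 bp. The signed distance, the Crol summit minus the Cg summit along the chromosome, had a median of 0 bp, and the middle 90% of pairs ran from -172 to 165 bp. Neither protein was thus displaced to 1 side along the chromosome numbering.

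This distance was about as large as the distance between lists of the same protein from WT and crol-KO tissue. Crol summits in WT lay a median of 39 bp (37 to 40) from Crol summits in crol-KO, with 81.7% within 100 bp. Cg summits in WT lay 35 bp (34 to 36) from Cg summits in crol-KO, with 85.1% within 100 bp. Crol in S2 cells, taken against Cg in WT discs and brains, gave a median of 40 bp (39 to 42). At this resolution the 2 proteins could hardly be told apart by position, which does not show that they contact the same bases, since the study sheared its chromatin to fragments far longer than these distances.

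**Figure D1:**
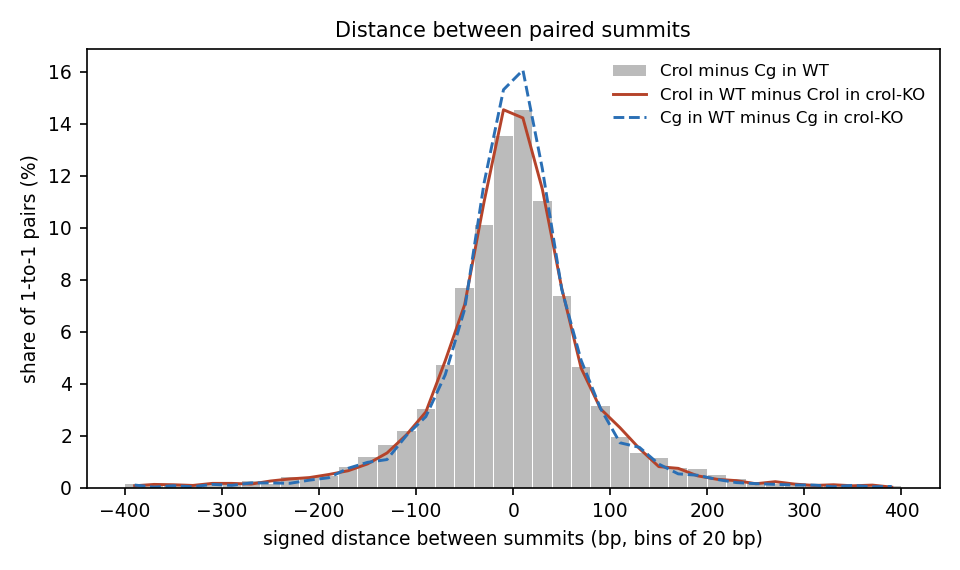
Share of 1-to-1 pairs (vertical axis, percent) by the signed distance between their summits in bins of 20 bp (horizontal axis, bp). Grey bars are Crol minus Cg in WT (7237 pairs), the solid line is Crol in WT minus Crol in crol-KO (7604 pairs) and the dashed line is Cg in WT minus Cg in crol-KO (7443 pairs). All 3 centre near 0, and 4.09% of the Crol and Cg pairs lie outside the plotted range.

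Larger distances went with wide peaks, and the weakest Crol peaks also had a larger median distance. Where the wider peak of the pair was at most 400 bp wide the median distance was 35 bp (31 to 39), and where it was over 1500 bp wide it was 71 bp (53 to 94). The share of pairs within 100 bp was 86.6% among the narrow pairs and 58.3% among the wide ones. By strength, pairs in the lowest 10% of the Crol list had a median distance of 55.5 bp (50 to 66), against 39 bp (35 to 42) in the strongest 10%. Pairs with summits over 400 bp apart were not weak. Their median fold enrichments were 4.17 for Crol and 4.04 for Cg, against 3.83 and 4.09 in pairs at most 25 bp apart. Width allows distance by construction, as the summit of a wide peak has more room.

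The summits lay more than 300 bp apart in 377 pairs (5.21%; 4.71 to 5.75). The 3 farthest were wide, strong sites. At chr3R:10563517-10567628 the Crol peak was 4112 bp wide (fold enrichment 8.04, rank 274) and the Cg peak 3948 bp wide (8.10, rank 160), with summits 2696 bp apart. At chr3L:9374402-9377595 the peaks were 3194 bp and 3019 bp wide, with 2219 bp between the Crol summit and the Cg summit. At chr3L:10657471-10660205, 2735 bp wide for Crol and 2599 bp for Cg, the distance was 1934 bp. In WT each of these sites was listed as 1 wide peak of each protein, with the summits near opposite ends.

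The side on which the Crol summit lay was only weakly shared with crol-KO tissue. Of the 1-to-1 pairs, 5961 sites had a 1-to-1 pair in crol-KO as well, and across them the signed distances in WT and crol-KO had a rho of 0.105. Among the 424 of these sites with more than 200 bp in WT, 61.6% (56.7 to 66.2) had at most 100 bp in crol-KO, and 18.4% (14.8 to 22.4) were again over 200 bp apart on the same side. Of WT distances of at most 50 bp, 51.3% (49.6 to 53.0) kept their side, and of those between 100 and 200 bp, 58.7% (54.9 to 62.4) did. One of the 3 farthest pairs did recur: at chr3L:9374402-9377595 the signed distance was -2219 bp in WT and -2213 bp in crol-KO. The others had no single pair in crol-KO to compare. There were 2 Cg peaks at chr3R:10563517-10567628 in crol-KO, and 2 Crol and 2 Cg peaks at chr3L:10657471-10660205. At chr3R:10563517-10567628 the Crol summit in crol-KO was at 10566588, within 20 bp of the Cg summit in WT at 10566577.

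Paired peaks also had nearly the same width. The width of the Crol peak over that of the Cg peak had a median of 1.02 (1.02 to 1.03), with 5% of pairs under 0.678 and 5% over 1.82. Crol was the wider peak in 54.3% of pairs and Cg in 45.2%, and in 64.4% of pairs the ratio lay between 0.8 and 1.25. The narrower peak lay wholly inside the wider one in 57.1% of pairs. The widths of the 2 peaks had a rho of 0.671.

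Relative width followed relative strength. In the weakest 10% of the Crol list the median ratio was 0.857 (0.828 to 0.890), so Crol was narrower there, and in the strongest 10% it was 1.10 (1.08 to 1.12). Across pairs, the ratio and the difference in percentile had a rho of 0.587. The width of a peak also went with its own percentile (rho 0.568 for Crol and 0.530 for Cg). The ratio therefore follows strength in part by construction, most directly in slices of the Crol list. In S2 cells Crol peaks were wider against the same WT Cg peaks, with a median ratio of 1.19 (1.18 to 1.20), while in crol-KO tissue Crol over Cg gave 1.02 (1.02 to 1.02), as in WT.

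A ratio of 2 or more was found in 251 pairs and of 0.5 or less in 64, so very unequal pairs were mostly ones with a wide Crol peak. The most unequal pair was at chr2L:695971-698228, where a Crol peak of 2258 bp (fold enrichment 3.12) overlapped a Cg peak of 305 bp (1.90), which was near the end of its list at rank 8907. In crol-KO the Crol peak there was 419 bp wide and no Cg peak was listed. At chr2L:11051918-11053692 the Crol peak was 1775 bp and the Cg peak 318 bp wide, and at chrX:6233669-6235285 they were 1617 bp and 315 bp. All 3 Cg peaks were among the weakest 10% of their list.

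On the opposite end, a Crol peak of 355 bp at chr2L:10231470-10231824 lay within a Cg peak of 1418 bp, a ratio of 0.250. At chr2R:11888413-11888884 the Crol peak was 472 bp wide and the Cg peak 1626 bp. At chr3R:20487888-20488319 the widths were 432 bp for Crol and 1307 bp for Cg. The Crol peaks at these 3 sites were wider in crol-KO, at 929, 848 and 873 bp in the same order. Sites picked for very unequal widths in WT must on average be less unequal in a second list. Crol peaks were also narrower in WT in general, with a median width ratio of 0.939 for WT over crol-KO. These widths therefore do not show a change particular to the named sites.

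The strongest sites of Crol were also the strongest of Cg at the very top, and less so below it. The site chrX:10234005-10234548 ranked 1 in both lists, with fold enrichments of 18.2 for Crol and 20.1 for Cg, and its summits lay 3 bp apart. The site chrX:10196271-10196818 ranked 2 in both, with 16.3 for Crol and 19.2 for Cg and 4 bp between the summits. Next by the sum of ranks was chrX:8410989-8411699, which ranked 13 for Crol and 6 for Cg. In crol-KO the first and second of these again had the percentiles 100 and 99.99 for Crol and for Cg. All of the 100 strongest Crol peaks and all of the 100 strongest Cg peaks were paired.

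Over all 1-to-1 pairs the ranks had a rho of 0.533. The 2 percentiles lay within 10 points of each other in 33.0% of pairs. Of 920 pairs with a Crol peak in the strongest 10% of its list, 369 (40.1%; 36.9 to 43.4) had a Cg peak in the strongest 10% of its own, which is 44.5% of the 830 such Cg peaks in pairs. Peak widths (0.671) and the numbers of reads piled up at the summits (0.713) were more alike between the proteins than the ranks. The local backgrounds at the summits, which the fold enrichment divides by, had a rho of 0.947 between the WT lists and of 0.822 between the Crol lists of WT and crol-KO. The methods do not name the control of each list. The part of the background in the ranks was not tested.

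**Figure D2:**
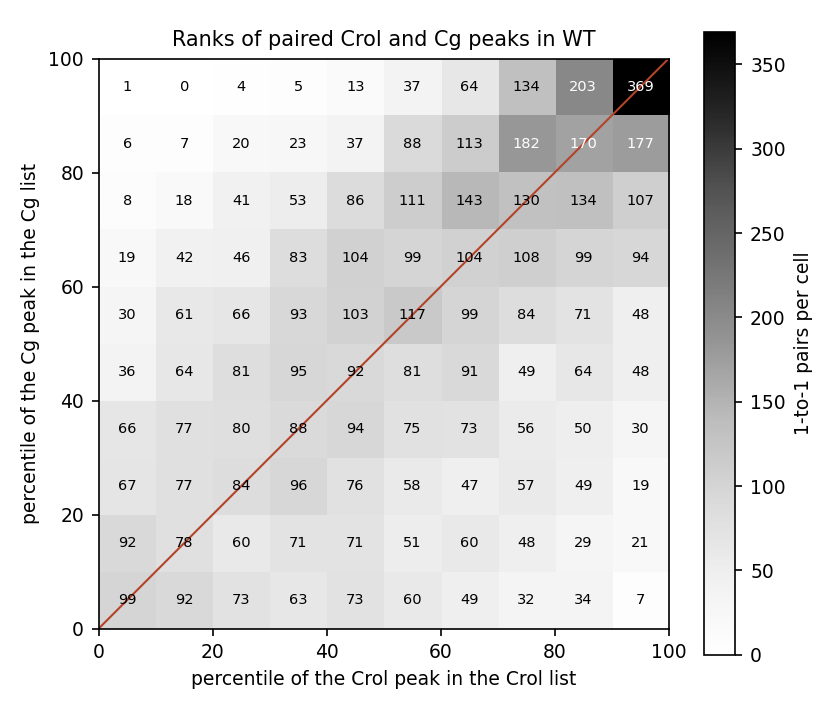
Number of 1-to-1 pairs by percentile of the Crol peak in the WT Crol list (horizontal axis) and of the Cg peak in the WT Cg list (vertical axis), in cells of 10 points; darker cells hold more of the 7237 pairs and the line marks equal percentiles. The fullest cell, with 369 pairs, is the strongest 10% of both lists, and the corner of strong Crol and weak Cg (lower right) holds more pairs than the corner of weak Crol and strong Cg (upper left).

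In crol-KO tissue the 2 proteins ranked their shared sites more alike than in WT. Over all 1-to-1 pairs of each genotype, rho between Crol and Cg was 0.533 in WT and 0.750 in crol-KO, and over the 5961 sites paired in both genotypes it was 0.542 in WT and 0.735 in crol-KO. The WT Crol list was the one that stood apart. At these sites its ranks had a rho of 0.630 with Crol in crol-KO and of 0.456 with Cg in crol-KO. The WT Cg list had 0.755 with Cg in crol-KO and 0.6003 with Crol in crol-KO. With 1 list a group, a property of the WT Crol libraries cannot be told apart from one of Crol binding in WT tissue.

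Of the sites that ranked far apart, more had Crol ahead, and how many more depended on the length of the lists. Crol was more than 50 points higher than Cg in 430 pairs (5.94%; 5.41 to 6.51), and Cg more than 50 points higher than Crol in 143 pairs (1.98%; 1.67 to 2.32). Of the 920 pairs with Crol in its strongest 10%, 125 had a Cg peak in the weaker 50% of the Cg list (13.6%; 11.4 to 16.0). Of the 830 pairs with Cg in its strongest 10%, only 23 had a Crol peak in the weaker 50% of the Crol list (2.77%; 1.76 to 4.13). With the Crol list cut to the length of the Cg list, Crol was far ahead in 356 pairs (5.28%; 4.75 to 5.84) and Cg in 238 (3.53%; 3.10 to 4.00). The shares at the strong end were then 12.7% (10.5 to 15.2) of 808 pairs for Crol and 5.40% (3.96 to 7.15) of 834 pairs for Cg. The order held at equal length, with a smaller gap.

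The site with Crol furthest ahead, chr3R:11818738-11819305, had a Crol fold enrichment of 7.49 (rank 378) and a Cg fold enrichment of 2.26 (rank 8546), from summits with 177 and 43 reads piled up. At chr2R:14222163-14223424 the values were 7.10 for Crol and 2.34 for Cg, and at chr2R:7553990-7554565 they were 7.05 for Crol and 2.34 for Cg. These Crol peaks stood at the percentiles 96.28, 94.96 and 94.82 in WT, and at 4.19, 14.77 and 27.04 in crol-KO. Crol was thus strong at these 3 sites in the WT list alone of the 2 genotypes.

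With Cg furthest ahead, chr2L:2878041-2878570 had a Crol fold enrichment of 2.31 (rank 9232) and a Cg fold enrichment of 6.79 (rank 471). At chr2R:17574964-17575445 the values were 2.24 for Crol and 5.40 for Cg, and at chrX:2277077-2277630 they were 2.27 for Crol and 5.45 for Cg. Here the Cg percentiles were 94.7, 84.4 and 84.8 in WT and 88.19, 87.49 and 89.97 in crol-KO. The Crol percentiles, 8.96, 6.72 and 7.44 in WT, were 56.0, 68.0 and 42.5 in crol-KO.

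The same held over all such sites: the Crol rank differed between WT and crol-KO more than the Cg rank did, whichever protein was ahead. Of the sites paired in both genotypes, 259 had Crol more than 50 points higher in WT. Their median Crol percentile was 82.0 (80.3 to 84.0) in WT and 50.1 (45.9 to 54.8) in crol-KO, and their median Cg percentile was 18.9 (16.6 to 20.6) in WT and 28.8 (26.2 to 33.6) in crol-KO. At the 134 sites with Cg more than 50 points higher in WT, the median Crol percentile was 16.3 (12.7 to 17.9) in WT and 42.1 (38.2 to 47.1) in crol-KO. The median Cg percentile at these 134 sites was 75.01 (71.67 to 76.86) in WT and 67.6 (61.1 to 71.4) in crol-KO. Sites picked for a large difference in WT must on average differ less in a second set of libraries. The direction of the change is therefore not a result. Its unequal share goes with the rank rho between genotypes over all shared sites, which was 0.630 for Crol and 0.755 for Cg. The less alike ranks move more at sites picked in this way, so the unequal share is not a separate trait of these sites.

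The protein that was ahead in WT was nevertheless mostly ahead in crol-KO too. Crol remained the higher one at 212 of the 259 sites (81.9%; 76.6 to 86.4), with a median lead of 18.8 points, and Cg at 118 of the 134 sites (88.1%; 81.3 to 93.0), with a median difference of -20.1 points. A lead of more than 50 points was found again at 19 and 6 of these sites in the same order. Across all 5961 sites the rank differences of WT and crol-KO had a rho of 0.464, against 0.236 for the width ratios and 0.105 for the signed distances. Of the 3 measures, relative strength was the one that best marked a site in both genotypes.

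Pairs with Crol far ahead were also less often found in other lists than pairs with Cg far ahead. A crol-KO Crol peak overlapped 82.3% (78.4 to 85.8) of the 430 Crol peaks with Crol far ahead, and 97.2% (93.0 to 99.2) of the 143 Crol peaks with Cg far ahead. A crol-KO Cg peak overlapped 67.7% (63.0 to 72.1) of the Cg peaks with Crol far ahead and 99.3% (96.2 to 100.0) of those with Cg far ahead, but the split itself makes Cg peaks weak in the first set and strong in the second. In S2 cells, Crol peaks were found at 46.5% (41.7 to 51.4) of the sites with Crol far ahead, against 90.2% (84.1 to 94.5) of those with Cg far ahead. Among pairs within 10 points the S2 share was 72.3% (70.5 to 74.1).

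In this split the stronger Crol peaks were the ones found less often. Those with Crol far ahead had a median fold enrichment of 4.93 and those with Cg far ahead 2.51. Over all 1-to-1 pairs, strong Crol peaks were found more often. A crol-KO Crol peak overlapped 84.9% of Crol peaks in the weakest 10% of the list and 98.4% in the strongest 10%. In S2 cells these shares were 62.7% and 80.1%. Among paired Crol peaks in the strongest 25% of the list, 85.9% (81.3 to 89.7) of 284 with Cg more than 50 points lower had a Crol peak in crol-KO, against 99.3% (98.8 to 99.6) of the other 1989. In S2 cells these shares were 52.1% (46.1 to 58.0) and 79.5% (77.7 to 81.3). A strong Crol peak with a weak Cg peak was thus less often seen again, in larval tissue and in the cell line, than the other paired Crol peaks among the strongest 25%. For Cg peaks, compared within the weakest 25% of their list, a crol-KO Cg peak was found at 62.5% (56.9 to 67.8) of 320 with Crol far ahead, against 73.5% (70.9 to 76.1) of the other 1148, whose median percentiles were 10.9 and 13.2 in the same order.

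**Figure D3:**
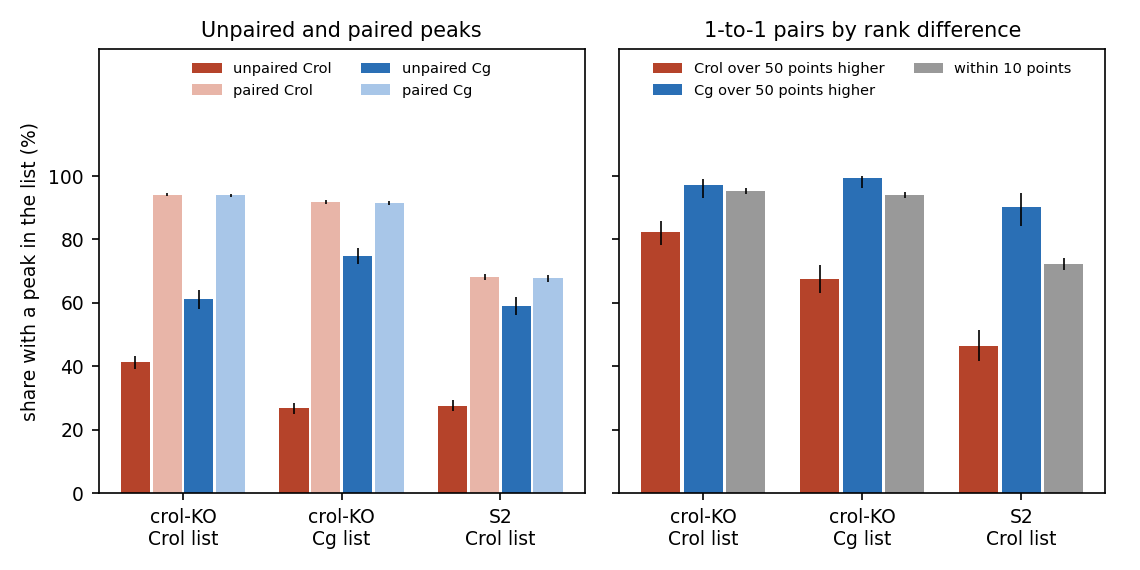
Share of WT peaks (vertical axis, percent) that overlap a peak of the crol-KO Crol list, the crol-KO Cg list and the S2 Crol list; bars are shares and lines are 95% intervals. Left, unpaired and paired peaks of Crol and of Cg; right, 1-to-1 pairs split by percentile difference, where the Crol peak was looked up in the Crol lists and the Cg peak in the Cg list. Unpaired Crol peaks have the lowest bars on the left (41.2%, 26.8% and 27.6%), and pairs with Crol over 50 points higher have the lowest on the right.

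The unpaired peaks were weaker and narrower than the paired ones in both lists. Unpaired Crol peaks had a median fold enrichment of 2.69 (2.67 to 2.72), a median width of 415 bp (408 to 421) and 44 reads at the summit. Paired Crol peaks had 3.73 (3.69 to 3.77), 571 bp (564 to 579) and 72 reads. Unpaired Cg peaks had 2.86 (2.82 to 2.90), 381 bp (377 to 387) and 39 reads, and paired Cg peaks 3.83 (3.79 to 3.87), 538 bp (533 to 543) and 59 reads. A wide peak overlaps another more easily by construction, so width and pairing are not independent.

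Weak peaks were more often unpaired than strong ones in both lists. In the weakest 10% of the list, 54.6% (51.5 to 57.7) of Crol peaks and 26.8% (23.9 to 29.8) of Cg peaks were unpaired. In the strongest 10%, 0.986% (0.474 to 1.81) of Crol peaks and 0.224% (0.0271 to 0.806) of Cg peaks were. Above the median of their list, 454 Crol peaks and 161 Cg peaks were unpaired, and 10 Crol and 2 Cg peaks were so in the strongest 10%. The share was higher for Crol in each 10% slice of the full lists, and in 8 of 10 slices with the Crol list cut to the length of the Cg list.

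The local background of a peak moved with this share. Relative to the lowest background of the list, it was a median of 1.46 (1.45 to 1.48) at unpaired and 1.79 (1.78 to 1.80) at paired Crol peaks, and 1.56 (1.52 to 1.58) at unpaired and 1.79 (1.78 to 1.80) at paired Cg peaks. Where it was at most 1.25, 43.5% of Crol and 23.8% of Cg peaks were unpaired, and where it was over 2.5, 2.67% of Crol and 2.00% of Cg peaks were. Among Crol peaks of middle strength, between the percentiles 40 and 60, the unpaired share was 35.1% (31.6 to 38.7) at a background of at most 1.5, 17.8% (15.3 to 20.5) between 1.5 and 2, and 6.19% (4.12 to 8.88) above 2. For Cg peaks of middle strength the values were 18.1%, 10.7% and 3.39%. At similar rank, peaks at sites of low background were thus more often unpaired. Rank is by fold enrichment, so at similar rank a lower background also means fewer reads at the summit. Background and read number cannot be told apart here, and the part of background in the pairing was not tested.

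**Figure D4:**
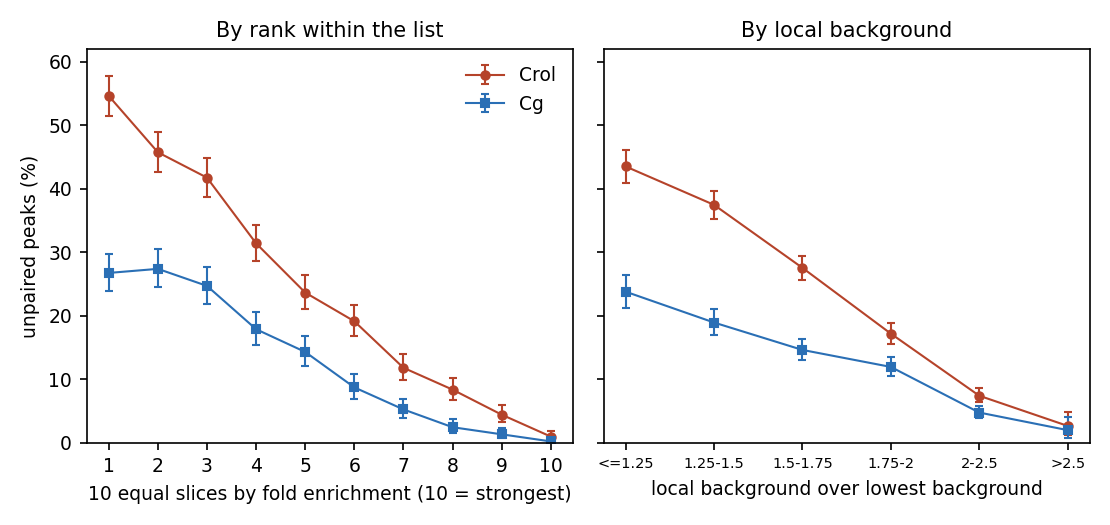
Share of unpaired peaks (vertical axis, percent) for Crol (circles) and Cg (squares), with 95% intervals. Left, by fold enrichment in 10 equal slices of each list, from the weakest (1) to the strongest (10); right, by the local background at the summit as a multiple of the lowest background in the list. Both shares are lowest in the strongest peaks and at the highest background, and with both lists at full length Crol lies above Cg throughout, with overlapping intervals at the right end of each panel.

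Unpaired Crol peaks were found in each of the other lists less often than unpaired Cg peaks. Of the 2454 unpaired Crol peaks, 41.2% (39.3 to 43.2) overlapped a Crol peak in crol-KO, 26.8% (25.03 to 28.57) a Cg peak in crol-KO and 27.6% (25.9 to 29.4) a Crol peak in S2 cells. Of the 1154 unpaired Cg peaks, 61.1% (58.2 to 63.9) overlapped a Crol peak in crol-KO, 74.8% (72.2 to 77.3) a Cg peak in crol-KO and 59.1% (56.20 to 61.95) a Crol peak in S2 cells. None of the other 3 lists held a peak at 44.0% (42.0 to 46.0) of unpaired Crol peaks and at 11.5% (9.74 to 13.5) of unpaired Cg peaks. For paired peaks of Crol and Cg this share was 3.01% and 3.12%.

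Most unpaired Cg peaks were therefore sites where Crol was listed in another sample. Of the 863 unpaired Cg peaks with a Cg peak in crol-KO, 631 (73.1%; 70.03 to 76.05) were there paired with Crol. Of the 1012 unpaired Crol peaks with a Crol peak in crol-KO, 581 (57.4%; 54.3 to 60.5) were there paired with Cg. Among peaks paired in WT these shares were 95.7% for Crol and 97.9% for Cg.

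Of the strongest peaks with no peak of the other protein within 1000 bp, the Crol ones were found again for Crol in crol-KO and the Cg ones for Crol in S2 cells. For Crol they were chrX:5664718-5665313 (fold enrichment 8.24, rank 225), chrX:6237461-6238530 (6.68, rank 675) and chr3L:4619532-4620295 (6.41, rank 813), which lay 6109, 2198 and 2926 bp from the nearest Cg peak. All 3 overlapped a Crol peak in crol-KO and none overlapped a crol-KO Cg peak or an S2 peak. For Cg they were chr3L:7806515-7807017 (8.40, rank 119), chr2R:6430503-6431161 (6.91, rank 425) and chr2R:9291126-9291600 (5.90, rank 967). All 3 of these overlapped an S2 Crol peak. The first also had a Cg peak in crol-KO, the second both a Crol and a Cg peak, and the third neither. At chr2R:6430503-6431161 the numbering of the Crol list skips, so that a Crol peak that was not analysed here may lie there.

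Most unpaired peaks lay more than 1000 bp from any peak of the other protein. A peak shifted by less than its width would still overlap and count as paired, so small shifts are not seen among unpaired peaks. The gap from an unpaired peak to the nearest peak of the other protein had a median of 3170.5 bp for Crol and 2877 bp for Cg. Only 12 unpaired Crol peaks and 5 unpaired Cg peaks had one within 100 bp, and 24.2% (22.6 to 26.0) of Crol and 24.1% (21.6 to 26.7) of Cg had one within 1000 bp. No Cg peak lay within 10 kb of 476 unpaired Crol peaks (19.4%; 17.8 to 21.0), and no Crol peak within 10 kb of 160 unpaired Cg peaks (13.9%; 11.9 to 16.0). The farthest stood 101814 bp from a Cg peak and 142817 bp from a Crol peak.

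Where the other protein was within 1000 bp, it mostly had a partner of its own. The neighbour was itself paired for 534 of 595 unpaired Crol peaks (89.7%; 87.0 to 92.1) and for 220 of 278 unpaired Cg peaks (79.1%; 73.9 to 83.8). These unpaired peaks thus mostly flanked a site that Crol and Cg shared. Over the full lists, 87.1% of Cg peaks and 75.8% of Crol peaks were paired, which lies inside these intervals in the same order. A paired neighbour was therefore about as common as a paired peak in the whole list.

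The nearest peak of the same protein was more often unpaired for unpaired peaks than for paired ones, with the larger difference for Crol. The nearest Crol peak was itself unpaired for 35.1% (33.2 to 37.1) of unpaired and 20.5% (19.6 to 21.4) of paired Crol peaks. The nearest Cg peak was unpaired for 14.7% (12.7 to 16.9) of unpaired and 12.4% (11.7 to 13.1) of paired Cg peaks, and these intervals overlapped. Among 1-to-1 pairs with Crol more than 50 points ahead the nearest Crol peak was unpaired in 129 of 430 (30%; 25.7 to 34.6), against 11.2% (6.53 to 17.5) with Cg more than 50 points ahead. With the Crol list cut to the length of the Cg list, the nearest Crol peak was unpaired for 29.8% of unpaired and 17.7% of paired Crol peaks, and the nearest Cg peak for 23.7% of unpaired and 18.0% of paired Cg peaks.

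Runs of neighbouring unpaired peaks were longer for Crol, and a larger unpaired share lengthens runs by construction. Of the unpaired Crol peaks, 1120 stood alone between paired ones, and there were 38 runs of 5 or more. The unpaired Cg peaks had no run above 4. With the Crol list cut to the length of the Cg list there were 14 Crol runs and 3 Cg runs of 5 or more, the longest with 8 and 5 peaks. The longest Crol run, chrX:1474535-1498236, held 10 peaks in 23702 bp, with fold enrichments between 2.03 and 4.28. Its strongest peak, chrX:1492088-1493648, was 1561 bp wide and stood at the percentile 70.8. In the same stretch the WT Cg list had 0 peaks, and the crol-KO Crol, crol-KO Cg and S2 Crol lists had 1 each.

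The 4 longest Cg runs had 4 peaks each, and other lists held peaks in all of them. At chr3L:833915-851437 the WT Crol list had 0 peaks, the crol-KO Crol list 4, the crol-KO Cg list 4 and the S2 list 5. At chrX:12800439-12817692 the same lists had 0, 4, 4 and 2 peaks in that order. At chrX:17984424-17995523 they had 0, 2, 4 and 5, and at chr3R:23750703-23764355 they had 0, 1, 3 and 5. Each of these stretches held at least 1 Crol peak in crol-KO and in S2 cells, and none in the WT Crol list.

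Along the chromosomes, unpaired peaks were spread over every arm. The unpaired share of Crol was 27.2% (25.2 to 29.3) on X, 24.2% on 2L, 23.2% on 2R, 25.5% on 3L, 21.9% on 3R and 13.8% (7.34 to 22.9) on 4, where 12 of 87 peaks were unpaired. That of Cg was 12.5% (10.9 to 14.2) on X, 13.6% on 2L, 11.9% on 2R, 12.4% on 3L, 14.1% on 3R and 9.76% (4.31 to 18.3) on 4. The arms 2L, 2R, 3L and 3R combined gave 23.6% (22.7 to 24.6) for Crol and 13.0% (12.3 to 13.8) for Cg. Crol was therefore more often unpaired on X than on the large autosomal arms combined, while for Cg the intervals overlapped. Taken singly, the Crol intervals of 2L (22.2 to 26.3) and 3L (23.6 to 27.4) overlapped that of X. Those of 2R and 3R lay below it, for 2R only just. With the Crol list cut to the length of the Cg list, the shares on X and on these arms were 24.1% and 19.4% for Crol, and 16.2% and 19.4% for Cg. The median background of Crol peaks was 1.45 times the lowest on X and 1.78 times on the autosomal arms, and the part of this in the difference was not tested. The summits were equally close on all arms, with medians between 40 and 45 bp.

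Distance from the centromere made little difference. With each of the 5 large arms cut into 5 equal parts and the arms put together, the unpaired share of Crol lay between 22.2% and 25.8% and that of Cg between 11.9% and 13.9%. The highest share in a single such stretch was 33.3% (27.6 to 39.4), for Crol next to the centromere of X. Part 2 of 2L had 32% (26.8 to 37.6) and part 3 of 3L 31.1% (26.9 to 35.5), counted from the centromere.

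**Figure D5:**
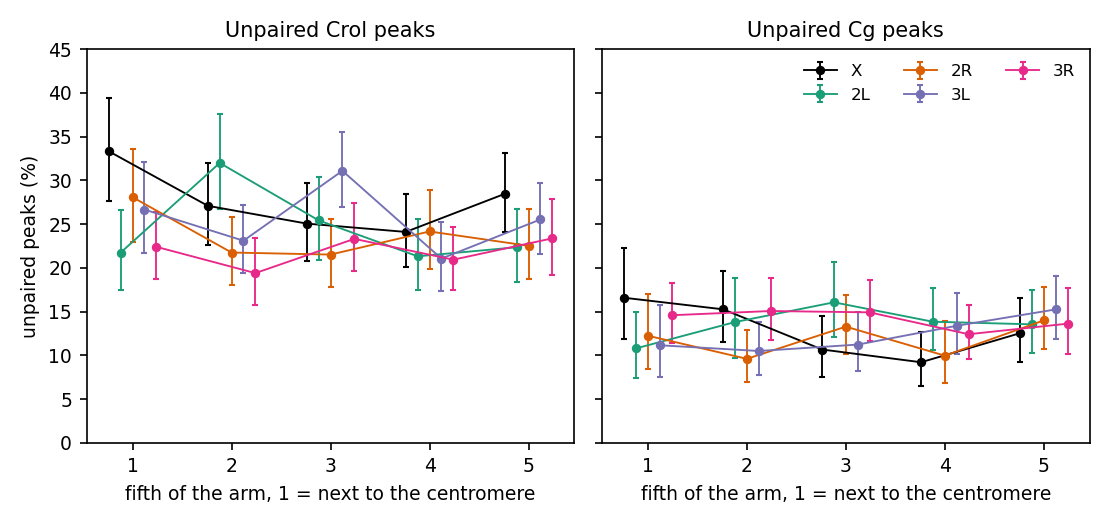
Share of unpaired peaks (vertical axis, percent) in 5 equal parts of each of 5 chromosome arms, counted from the centromere (1) to the tip (5), for Crol (left) and Cg (right), with 95% intervals; points are set apart sideways for legibility. With both lists at full length, Crol lies above Cg on every arm, neither falls or climbs steadily along the arms, and the highest Crol value is 33.3% next to the centromere of X.

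Smaller stretches varied more, and mainly for Crol. Over 116 windows of 1 Mb with at least 20 peaks, the unpaired share ran from 5.56% to 48.2% for Crol (SD between windows 7.12 points, against 4.75 points from counting error alone) and from 3.26% to 27.3% for Cg (4.56 against 3.96 points). The highest Crol windows were chrX:18000001-19000000 with 41 of 85 peaks unpaired (48.2%; 37.3 to 59.3), chr2L:14000001-15000000 with 34 of 80 (42.5%; 31.5 to 54.1) and chr3L:22000001-23000000 with 36 of 89 (40.4%; 30.2 to 51.4). In these windows 14.8%, 17.5% and 8.62% of Cg peaks were unpaired, in the same order. The lowest were chr3R:8000001-9000000 with 3 of 54 Crol peaks unpaired, chr3R:24000001-25000000 with 5 of 55 and chr2L:10000001-11000000 with 8 of 74, where 15.0%, 13.6% and 14.3% of Cg peaks were unpaired.

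The unpaired shares of Crol and Cg showed little relation across windows, but these data could hardly show one. Across the windows, the unpaired shares of Crol and Cg had a rho of 0.109. The Cg shares varied little beyond counting error (SD 4.56 against 3.96 points), which by itself keeps such a rho low. Whether the same windows are rich in unpaired peaks of both proteins therefore cannot be told. The unpaired share of Crol had a rho of -0.135 with the median Crol fold enrichment and of -0.271 with the median background of the same windows, which share their libraries.

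In the share of paired peaks and in the rank rho, Crol and Cg in WT lay between the most similar comparisons. In crol-KO, 85.0% (84.2 to 85.7) of Crol peaks and 90.8% (90.2 to 91.4) of Cg peaks were paired with each other. Crol in S2 cells was paired with WT Cg at 58.8% (57.8 to 59.8) of Crol peaks and 66.6% (65.6 to 67.6) of Cg peaks, with a rank rho of 0.391. The share of 1-to-1 groups was 96.2% in crol-KO and 93.1% with S2 cells. Between the genotypes depth moved with these values, and its part was not tested. The lists implied about 4.89 M reads for Crol and 3.57 M reads for Cg in crol-KO. In WT they implied 4.24 M and 3.42 M in the same order. The read number of the S2 list was not solved.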

How the data were processed

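The ChIP-seq peak lists of 5 groups, each with 2 samples grouped by title, were used out of 34 samples. According to the methods, Trim Galore 0.6.5 was used by the authors for trimming, and Bowtie2 2.3.5 for alignment to dm3. They removed duplicates with SAMtools 1.13, pooled replicates and called narrow peaks with MACS2 2.2.5 at a q-value of 0.05, with reads extended to 300 bp. The deposited columns hold a whole-number score, fold enrichment at the summit (a ratio) and −log10 of the p-value and of the q-value, all from the authors' calls. Peak numbers are skipped in the lists (332 for Crol and 357 for Cg in WT), and those peaks were not analysed here.

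Peaks were matched by 1 bp overlap and linked into groups, and 1-to-1 groups were compared by summit, width and percentile of fold enrichment. The number of reads at the summit and the background were solved from fold enrichment and p-value, taken as a Poisson tail as MACS computes it, which succeeded for 99.98% of peaks of both WT lists within 0.005 of the −log10 p-value. The lowest background gave the reads, for 300 bp reads and the 120 Mb preset. Python 3.11.15, numpy 2.4.6, pandas 2.3.3, scipy 1.17.1 and matplotlib 3.10.9 were used, and the functions were tested on simulated data. With 1 pooled list a group no test across samples was possible. Intervals are 95% intervals over peaks.

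Named sites were the 3 pairs with the lowest sum of ranks, the 3 groups with most peaks, the 3 pairs with the largest summit distance, rank difference and width ratio in each direction, the 3 strongest Crol and the 3 strongest Cg peaks standing more than 1000 bp from the other protein, the longest runs, and the 3 windows of 1 Mb with the highest and the lowest unpaired Crol share. The comparison and these rules were chosen with earlier results of these data known. The split of pairs at 50 and 10 percentile points, the neighbour counts the ranks in crol-KO by that split and the comparison of Cg peaks within 25% of the list were chosen after values had been seen. DNA sequence around summits was not used here.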

Additional observations from a re-analysis of the deposited data

Results flagged for a closer look

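A signal was present on sequences that the comparison does not use. The heterochromatic and unplaced sequences of the build held 39 Crol peaks and 43 Cg peaks in WT, more than the 3 that a count of 0 allows. Of these, 37 Crol peaks (94.9%; 95% interval 82.7 to 99.4) overlapped a Cg peak and 37 Cg peaks (86.0%; 72.1 to 94.7) overlapped a Crol peak. No group had 4 or more lists, so no list could be tested as standing apart from its group.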

How the results depend on the processing

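No paired analysis was possible because the authors pooled the replicates of each group before calling peaks, and for the same reason no replicate could be left out. A required overlap of 50% of both peaks gave paired shares of 68.9% for Crol and 78.1% for Cg, 1-to-1 groups of 100%, a width ratio of 1.02 (1.01639), a rank rho of 0.551 and 15.1% of unpaired Crol peaks with no Cg peak within 10 kb. Counting peaks within 1000 bp as paired gave 81.7%, 90.2%, 75.7% and a width ratio of 1.00, with 25.6% of unpaired Crol peaks beyond 10 kb. A −log10 q-value of at least 5 in both lists gave 74.5%, 86.1% and 96.2%, a summit distance of 38 bp with 81.8% within 100 bp, a rho of 0.493 and 22.5% beyond 10 kb. With the Crol list cut to its strongest peaks, as many as the Cg list has, the paired shares were 79.7% for Crol and 81.2% for Cg, so that the contrast between their unpaired shares nearly closed, 80.9% of summits lay within 100 bp, the width ratio was 1.03 and rho was 0.500. Ranking by −log10 q-value gave a rho of 0.599, and nearest summits with one-to-many groups included gave 78.5% within 100 bp. The other 27 of 52 values stayed within their main interval. The cutoffs on q-value and list length leave fewer peaks to match and the overlap rules change the match by construction; the cause of the other moves was not tested.

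Peaks at skipped numbers of the other list (97 Crol, 42 Cg) were left out in an alternative chosen after seeing the data, and all 8 main values stayed within their intervals. In all 6 alternatives that recompute them, 3 orders held. Crol was more often unpaired on X than on 2L, 2R, 3L and 3R combined (by 2.36 to 4.99 points). Pairs with Crol far ahead outnumbered pairs with Cg far ahead (by 1.75 to 3.92 points). Pairs with Cg far ahead were more often found in S2 cells (by 37.2 to 50.7 points). The order of X and these arms for Cg held in 4 of the 6. Depth limits what the weakest peaks show: an unpaired peak may be a site where the other protein missed the authors' threshold.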
